A study of Homo sapiens with 27 samples.

Results

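The genes described here are 8 members of the PI3K, AKT and mTOR signalling pathway (PIK3CA, PIK3CB, PIK3R1, PIK3R3, AKT1, AKT2, INPP4B and MTOR), taken by name from the 60619 genes of the count table and followed across all 9 groups of samples. The samples were RNA-Seq libraries from invasive lobular carcinoma (ILC), the breast cancer type that lacks E-cadherin, modelled by MDA-MB-134VI (MM134) and SUM44, both human cell lines that carry the estrogen receptor (ER). MM134 parental cells were set beside 4 long-term estrogen-deprived (LTED) variants, named LTED-A, -B, -D and -E. The SUM44 LTED variants LTED-A and LTED-B were set beside SUM44F, their parental culture, which is SUM44PE adapted to medium with serum, and the original SUM44PE culture formed the last group. For 3 days before collection the parental cells were kept without hormones, and each LTED variant is a clone that arose and was kept in medium with charcoal-stripped serum, so that every group had been without steroid hormones when its RNA was taken. Every group held 3 libraries from cells seeded in triplicate wells, with no word of separate cultures, so the p-values measure the spread between these samples, which may be technical. The libraries of replicates 2 and 3 in SUM44 LTED-A were closer to each other than sampling noise allows and were counted as 1 sample (n = 2).

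Class IA PI3K enzymes pair a catalytic subunit, which makes the lipid messenger phosphatidylinositol trisphosphate at the plasma membrane, with a regulatory subunit that holds the catalytic subunit stable, restrains it and docks it onto activated receptors. AKT kinases are recruited by that lipid and by its breakdown product phosphatidylinositol bisphosphate, which the phosphatase INPP4B removes, and they promote survival, growth and, through the kinase MTOR, protein and lipid synthesis. In ER-positive breast cancer the pathway is a frequent target of mutation and is linked to growth under endocrine therapy.

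The depth of the libraries ranged from 28583554 to 134882175 counts (median 44018412). All 8 genes passed the filter on low counts in every fit, with 489 counts (PIK3CB) as the lowest value of any of them in a sample and 37296 (AKT1) as the highest. Levels are given as CPM, counts scaled to a common library size (1e6 counts), after 1 normalisation over all 9 groups. The luminal markers were present in every group, with a summed level of 4314 to 9143 CPM for the 7 genes, and CDH1, which encodes E-cadherin, was between 8.46 and 24.0 CPM. SUM44F replicate 1 stood apart in the summed level of the 4 fibroblast markers (165 CPM, against 8.66 and 7.82 CPM in replicates 2 and 3), SUM44F replicate 3 in its distance from the other SUM44F libraries, and SUM44 LTED-A replicate 1 from its other sample. In bulk RNA, fewer cells that express a gene and less RNA per cell cannot be told apart.

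By GENCODE release 44 on hg38, PIK3CA (chr3:179148114-179240093) and PIK3CB (chr3:138652698-138834928), the catalytic subunits, lie on chromosome 3. PIK3R1 (chr5:68215740-68301821) and PIK3R3 (chr1:46040140-46133036) encode regulatory subunits. The kinases are AKT1 (chr14:104769349-104795751), AKT2 (chr19:40230317-40285536) and MTOR (chr1:11106535-11262556), and INPP4B lies at chr4:142023160-142847432. RefSeq promoter windows of 300 bases (250 before a transcription start and 50 from it on, GRCh38.p14) were at hand for all 8 genes, 24 windows in all. They were searched on both strands for a pair of short motifs. The forkhead core reads TGTTTAC and is shared by FOXA1 and the FOXO factors, which AKT inactivates. The nuclear receptor hexamer reads AGGTCA and is the core of an estrogen response element. The forkhead core was in 1 of the 24 windows and in 3.42% of the 35116 RefSeq windows of this length, and the hexamer was in 2 of 24 and in 13.8% of all windows. Neither search says anything about binding. The windows shown are those that hold a match and the first windows of PIK3R1 and INPP4B, the members with the largest changes described below, with each match in capitals. For PIK3R3, the annotated end is the one at which transcription of the gene starts. The PIK3R3 window shown, 1 of 6 for this gene, lies upstream of that end and so outside the gene.
PIK3CA, chr3:179148107-179148406, plus strand, forkhead core starting 149 bases before the start: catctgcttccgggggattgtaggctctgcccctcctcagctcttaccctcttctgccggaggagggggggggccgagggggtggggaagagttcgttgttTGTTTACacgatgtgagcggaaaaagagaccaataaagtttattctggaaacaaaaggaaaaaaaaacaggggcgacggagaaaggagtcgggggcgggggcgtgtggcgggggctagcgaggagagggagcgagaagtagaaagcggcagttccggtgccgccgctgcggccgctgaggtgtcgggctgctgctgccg
PIK3R3, chr1:46174852-46175151, minus strand, hexamer starting 38 bases before a start that lies 41865 bases upstream of the gene's annotated end: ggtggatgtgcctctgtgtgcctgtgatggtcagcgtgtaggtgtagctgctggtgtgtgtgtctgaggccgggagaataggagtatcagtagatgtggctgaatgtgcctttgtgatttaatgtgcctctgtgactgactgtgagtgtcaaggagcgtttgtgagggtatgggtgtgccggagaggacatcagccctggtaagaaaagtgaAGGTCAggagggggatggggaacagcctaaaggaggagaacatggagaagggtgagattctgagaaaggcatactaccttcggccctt
INPP4B, chr4:142305895-142306194, minus strand, an internal start with the hexamer starting 228 bases before it: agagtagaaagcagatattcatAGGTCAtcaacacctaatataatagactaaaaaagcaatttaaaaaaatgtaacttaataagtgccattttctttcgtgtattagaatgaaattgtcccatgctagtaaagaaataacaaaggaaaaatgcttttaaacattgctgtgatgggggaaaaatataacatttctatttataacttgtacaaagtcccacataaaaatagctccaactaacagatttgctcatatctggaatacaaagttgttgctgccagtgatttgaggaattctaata
INPP4B, chr4:142846252-142846551, minus strand, the first start, with no match: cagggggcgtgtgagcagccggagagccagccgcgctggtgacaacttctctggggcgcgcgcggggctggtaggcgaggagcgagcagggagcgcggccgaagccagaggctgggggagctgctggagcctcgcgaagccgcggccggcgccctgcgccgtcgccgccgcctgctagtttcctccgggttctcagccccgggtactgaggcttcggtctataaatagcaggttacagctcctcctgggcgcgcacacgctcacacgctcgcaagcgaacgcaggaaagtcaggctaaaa
PIK3R1, chr5:68215506-68215805, plus strand, the first of 4 starts, with no match: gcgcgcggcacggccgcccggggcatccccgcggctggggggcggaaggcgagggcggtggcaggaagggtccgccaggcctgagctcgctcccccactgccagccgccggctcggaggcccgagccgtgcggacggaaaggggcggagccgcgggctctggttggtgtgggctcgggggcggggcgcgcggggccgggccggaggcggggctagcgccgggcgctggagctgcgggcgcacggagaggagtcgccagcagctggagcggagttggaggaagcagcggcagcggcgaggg
The first windows of PIK3R1 and INPP4B were rich in G and C (80.0% and 68.7% of bases), while the internal INPP4B window with the hexamer held 30.0%.

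The comparison of LTED variants with their parental cells asks how the messenger RNAs of the pathway differed after adaptation to estrogen deprivation. PIK3R1, PIK3R3 and INPP4B were the members that passed both thresholds in any LTED variant (fold change above 1.5 and adjusted p under 0.001, edgeR's quasi-likelihood test with Benjamini-Hochberg adjustment over all genes tested). PIK3R1 fell in MM134 LTED-E and in both SUM44 variants. INPP4B rose in MM134 LTED-A and LTED-B and fell in SUM44 LTED-B, and PIK3R3 rose in MM134 LTED-E and fell in both SUM44 variants. The catalytic subunit genes PIK3CA and PIK3CB and the kinase genes AKT1, AKT2 and MTOR passed both thresholds in no LTED variant. The counts stand beside their backgrounds: 1 of 8 members in MM134 LTED-A, where 20.3% of all genes tested were called, 1 in LTED-B (15.9%), 0 in LTED-D (17.6%), 2 in LTED-E (19%), 2 in SUM44 LTED-A (13.7%) and 3 in SUM44 LTED-B (17.3%). With 8 genes, counts of 0 to 3 are not read as a result about the set against these backgrounds, and the values below describe the single members. With no minimum fold change, 4 members in MM134 LTED-A (37.8% of all genes), 5 in LTED-B (32.5%), 4 in LTED-D (35.4%) and 4 in LTED-E (35.5%) had an adjusted p under the threshold. The 4 MM134 comparisons share the MM134 parental libraries and the SUM44 comparisons share the SUM44F libraries.

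**Figure D1:**
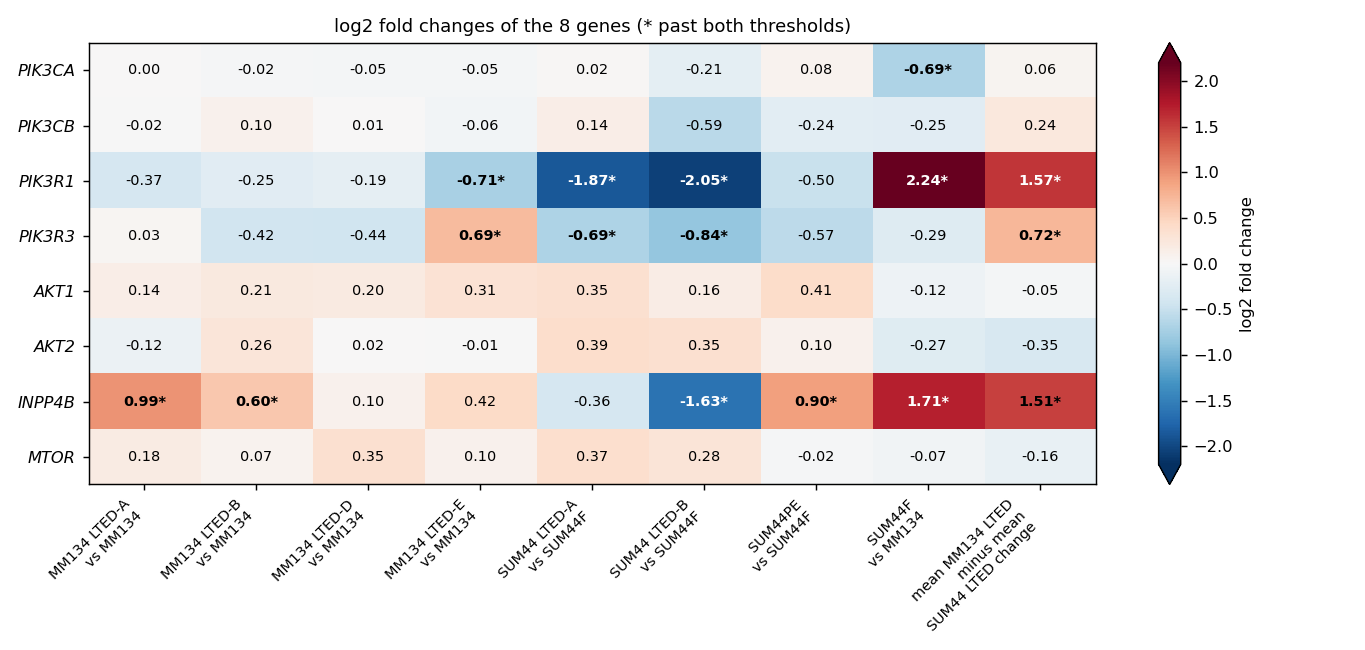
log2 fold changes of the 8 genes (rows) in 9 comparisons (columns), with red for higher and blue for lower in the group named first, and an asterisk where the fold change was above 1.5 with an adjusted p under 0.001. PIK3R1 and INPP4B hold the largest values, from -2.05 to 2.24, while the rows of AKT1, AKT2 and MTOR stay between -0.35 and 0.41.

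PIK3R1, which encodes a class IA regulatory subunit, fell furthest in the SUM44 line. In SUM44F its levels were 219, 234 and 209 CPM. The 2 SUM44 LTED-A samples had 59.8 and 65.9 CPM, and SUM44 LTED-B had 55.5, 55.3 and 54.0 CPM. Every LTED sample was below every SUM44F sample by a wide margin, and the log2 fold change was -1.87 (SE 0.081, adjusted p = 5.30e-08) for LTED-A against SUM44F. For LTED-B it was -2.05 (SE 0.070, adjusted p = 6.74e-09). These changes lay beyond those of 93.7% and 94.3% of all genes tested in size. In SUM44PE, PIK3R1 was at 143, 161 and 155 CPM, below SUM44F without overlap but above every SUM44 LTED sample. The change from SUM44F to SUM44PE, -0.50 on the log2 scale (adjusted p = 8.16e-05), was under the fold threshold.

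In the MM134 line PIK3R1 started from a lower level. MM134 parental cells had 48.2, 45.9 and 47.7 CPM, and MM134 LTED-E had 29.8, 29.4 and 29.5 CPM, which was lower in every library (log2 fold change -0.71, SE 0.035, adjusted p = 4.01e-12). LTED-A, LTED-B and LTED-D ranged from 37.0 to 37.5, 39.0 to 42.6 and 41.7 to 42.9 CPM, so that all 12 MM134 LTED libraries were below all parental ones. The log2 fold changes of these variants were -0.37, -0.25 and -0.19, each with an adjusted p under the threshold and a fold change that did not reach it. Between parental lines PIK3R1 was higher in SUM44F than in MM134 by 2.24 on the log2 scale (SE 0.042, adjusted p = 1.53e-21), a fold change of 4.74. In that comparison 3 of the 8 members were called higher or lower, with 38.1% of all genes tested called, and with no minimum fold change 5 passed, against 48.1% of all genes.

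PIK3R3, the gene of a second regulatory subunit, set MM134 LTED-E apart. Its levels were 175, 173 and 171 CPM in MM134 parental cells and 293, 281 and 284 CPM in LTED-E, with no overlap (log2 fold change 0.69, SE 0.032, adjusted p = 1.02e-12). In LTED-A they were 184, 182 and 179 CPM, just above the parental range (0.03, adjusted p = 0.388). LTED-B and LTED-D were lower than the parental cells in every library, at 128 to 140.0 CPM and 128 to 132 CPM. Their log2 fold changes of -0.42 and -0.44 had adjusted p values of 2.63e-09 and 1.16e-09 and were under the fold threshold. LTED-E was also higher than each other MM134 variant, by 0.66 against LTED-A (adjusted p = 6.64e-12), 1.11 against LTED-B (adjusted p = 3.80e-15) and 1.13 against LTED-D (adjusted p = 2.68e-15). PIK3R3 was the 1 called member in each of these pairs, where 7.84%, 9.78% and 11.6% of all genes were called, and 0 members were called in LTED-B against LTED-A (7.06%) or LTED-D against LTED-B (7.4%). With no minimum fold change, 22 changes of members passed over the 6 pairs of MM134 variants, with 8 members tested in each pair. The shares of all genes were 19.8% for LTED-B and LTED-A, 25.2% for LTED-D and LTED-A and 21.3% for LTED-E and LTED-A. They were 22.3% for LTED-D and LTED-B, 24.8% for LTED-E and LTED-B and 27.6% for LTED-E and LTED-D. The sum is not read as a result about the members. Their mean levels were above those of 85.1% (PIK3CB) to 99.2% (AKT1) of genes with a count, and genes of like level were not compared.

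In the SUM44 line PIK3R3 moved in the opposite direction to MM134 LTED-E. SUM44F had 139, 146 and 134 CPM, SUM44 LTED-A had 83.7 and 97.2 CPM and SUM44 LTED-B had 78.2, 82.7 and 80.1 CPM, with all LTED samples below SUM44F. LTED-A differed by -0.69 on the log2 scale (SE 0.071, adjusted p = 2.88e-05) and LTED-B by -0.84 (SE 0.063, adjusted p = 2.08e-06). SUM44PE, at 85.6, 98.3 and 92.4 CPM, was itself below SUM44F (-0.57, adjusted p = 1.96e-05, under the fold threshold) and overlapped SUM44 LTED-A, while SUM44 LTED-B lay below both. The size of the SUM44 change in PIK3R3 thus depended on which parental culture was taken. The gene shares exons on the same strand with the read-through gene P3R3URF-PIK3R3, which took at most 4.72% of the counts of the pair in any sample.

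INPP4B, the phosphatase gene, varied between LTED variants of the same line. Its levels in MM134 parental cells were 34.0, 33.5 and 36.3 CPM. LTED-A had 73.1, 71.2 and 66.5 CPM, and LTED-B had 53.0, 54.0 and 53.0 CPM. LTED-D had 37.3, 39.3 and 36.8 CPM, and LTED-E had 46.6, 49.3 and 45.7 CPM. Every library of the 4 variants lay above the parental range, LTED-D only just, and LTED-A was highest. The summed level of the 5 immune markers was also highest in LTED-A, at 9.53 to 10.6 CPM against 0.451 to 0.963 CPM in the parental cells. LYZ made up 9.80 CPM of it, CD3E was at 0 in 19 of all 26 samples, and the part of these markers in the result was not tested. INPP4B rose by 0.99 on the log2 scale in LTED-A (SE 0.043, adjusted p = 4.69e-13) and by 0.60 in LTED-B (SE 0.044, adjusted p = 1.51e-09). The values were 0.42 in LTED-E (adjusted p = 1.81e-07) and 0.10 in LTED-D (adjusted p = 0.0776). LTED-B was close to the threshold, with a fold change of 1.51, and it lost its call when MM134 parental replicate 1 or 2 was left out (lowest log2 fold change 0.57). LTED-D was lower than LTED-A by a called difference of -0.89 (adjusted p = 5.65e-12), the 1 called member of that pair (9.88% of all genes called).

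The SUM44 parental cultures held INPP4B at a higher level, and it fell in LTED-B. SUM44PE had 195, 209 and 204 CPM and SUM44F had 108, 116 and 109 CPM. SUM44 LTED-A was at 79.9 and 100.1 CPM and SUM44 LTED-B at 37.5, 37.2 and 36.5 CPM, a level that overlapped MM134 LTED-D. The fall in LTED-B was -1.63 on the log2 scale (SE 0.070, adjusted p = 3.63e-08), a larger change in size than that of 91.4% of all genes tested, and LTED-A differed from SUM44F by -0.36 (adjusted p = 0.00353), which did not pass. LTED-B was lower than LTED-A by -1.26 (SE 0.075, adjusted p = 1.24e-06), the 1 called member of that comparison, where 7.42% of all genes were called. INPP4B was higher in SUM44PE than in SUM44F by 0.90 (SE 0.064, adjusted p = 5.62e-07), the 1 called member of a comparison in which 5.57% of all genes were called (3 members and 7.56% of all genes with no minimum fold change), and higher in SUM44F than in MM134 by 1.71 (adjusted p = 8.32e-18).

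**Figure D2:**
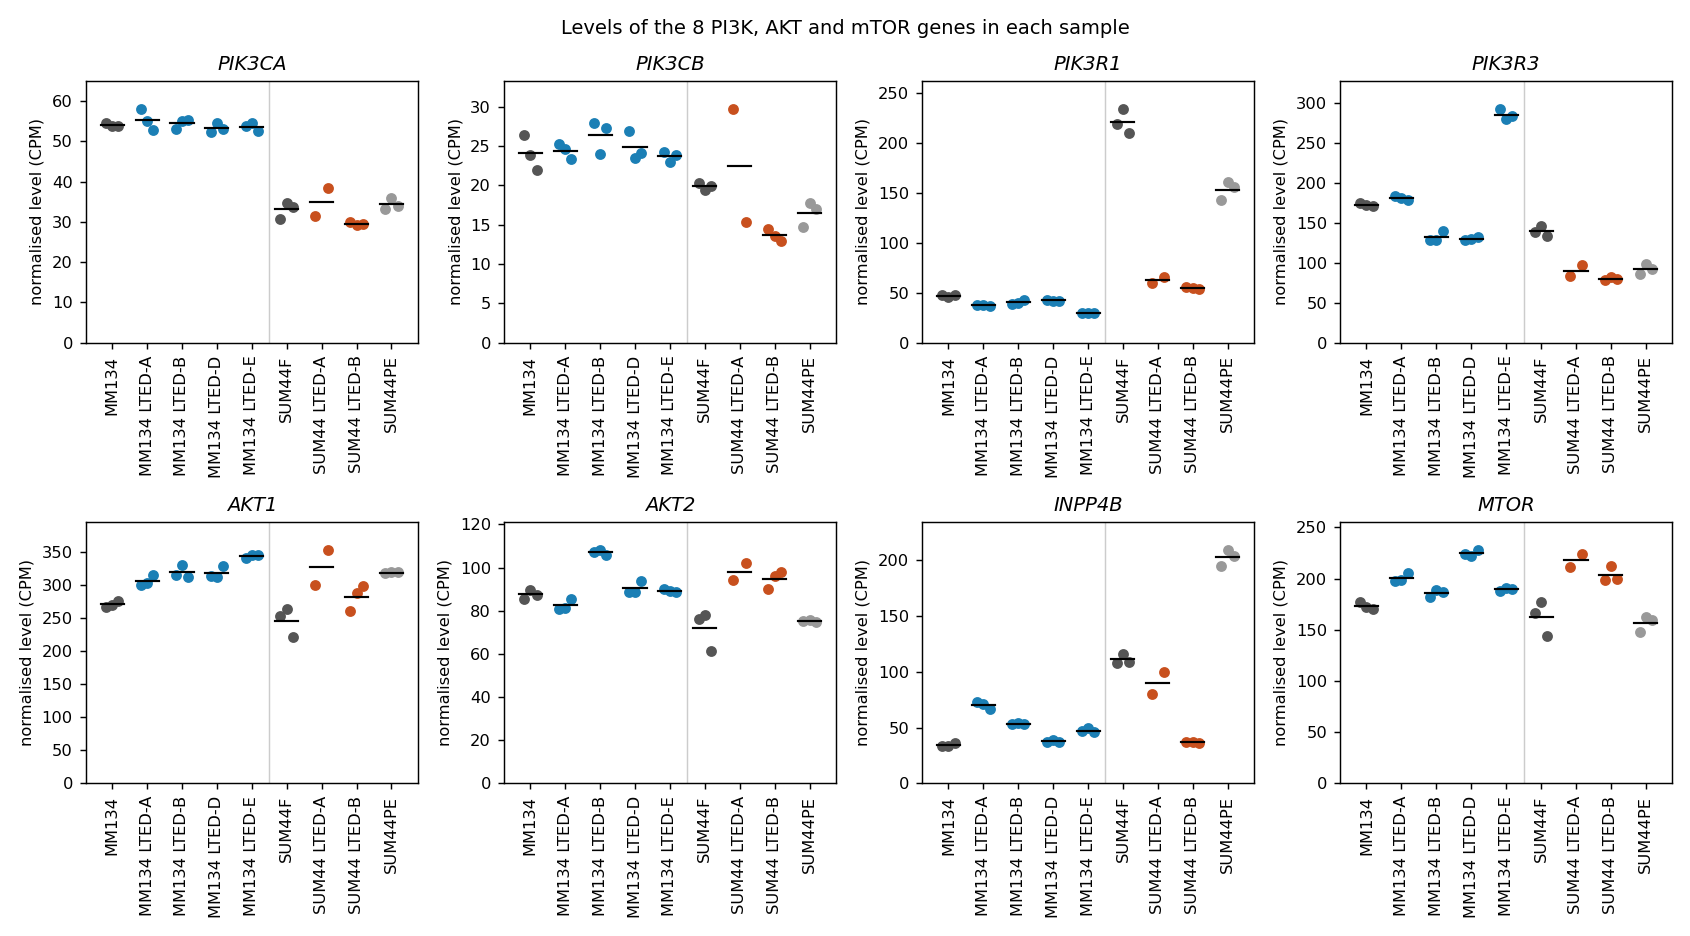
Levels in CPM (vertical axes, from 0) of the 8 genes in every sample, with 1 point per sample, a line at the group mean, parental groups in grey, MM134 LTED variants in blue and SUM44 LTED variants in orange. The points of PIK3R1, PIK3R3 and INPP4B lie close together within groups and far apart between them, whereas PIK3CB in SUM44 LTED-A is split between 29.7 and 15.3 CPM.

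With the fibroblast-marked SUM44F replicate 1 left out, the called SUM44 changes were as large, at -1.87 and -2.05 for PIK3R1, -0.69 and -0.84 for PIK3R3 and -1.64 for INPP4B in LTED-B, and all remained past both thresholds. Without SUM44F replicate 3 they were -1.89 and -2.09, -0.70 and -0.87, and -1.64. Leaving out SUM44 LTED-A replicate 1 leaves 1 sample in that group, which is assumed to vary like the other groups, and the LTED-A values were then -1.83 for PIK3R1 and -0.61 for PIK3R3. The 3 endothelium markers summed to between 25.5 and 39.6 CPM in the 3 SUM44F libraries, against 3.02 to 3.15 CPM in SUM44 LTED-A and 3.73 to 4.68 CPM in SUM44 LTED-B, so that no omission of a single library takes them out of these comparisons. PECAM1 (24.9 CPM) and VWF (6.78 CPM) made up most of that sum in SUM44F, and CDH5 was at 0.336 CPM. Their part in the SUM44 results was not tested.

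Among the catalytic subunits, PIK3CA differed between the lines and hardly within them. In all 15 MM134 libraries it was between 52.4 and 58.0 CPM, and in all 11 SUM44 samples between 29.1 and 38.3 CPM, without overlap between the lines. Its log2 fold changes in the 4 MM134 variants were from -0.05 to 0.0015 and in the SUM44 variants 0.02 and -0.21, none past the thresholds. The difference between the parental lines was -0.69 (SE 0.049, adjusted p = 3.08e-11) for SUM44F against MM134. KCNMB3 overlaps exons of PIK3CA on the opposite strand and its counts reached 14.9% of those of PIK3CA. Because the strand setting of the quantification was not stated in the sources, overlapping genes cannot be told apart with certainty.

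PIK3CB, the other catalytic subunit gene, passed both thresholds in no LTED variant. It was between 22.0 and 27.9 CPM in the MM134 libraries, with log2 fold changes of -0.06 to 0.10 in the LTED variants. In SUM44F it ranged from 19.5 to 20.3 CPM. The SUM44 LTED-A samples had 29.7 and 15.3 CPM, on either side of SUM44F, and SUM44 LTED-B had 14.4, 13.6 and 12.98 CPM, below it. The log2 fold change of LTED-B was -0.59 with an adjusted p of 0.0498. With SUM44F and SUM44 LTED-B as the only groups in the fit, the value was -0.60 and passed both thresholds, and without SUM44 LTED-A replicate 1 it was -0.56 (adjusted p = 5.58e-04), just under the fold threshold. For SUM44 LTED-A the same omission turned the value from 0.14 to -0.47, which rests on the 1 sample left in that group.

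AKT1, the gene of a kinase recruited by the lipid products of PI3K, was higher in all MM134 LTED libraries than in all parental ones by a small amount. The parental libraries were at 267 to 276 CPM, LTED-A at 299.7 to 315, LTED-B at 312 to 331, LTED-D at 313 to 329 and LTED-E at 341 to 346 CPM. The log2 fold changes were 0.14, 0.21, 0.20 and 0.31, with adjusted p values of 2.01e-04, 3.82e-06, 4.50e-06 and 1.44e-08, all under the fold threshold. In SUM44F AKT1 was at 253, 264 and 221 CPM. The SUM44 variants had 301 and 354 CPM for LTED-A and a range of 260.5 to 299 CPM for LTED-B. Their changes were 0.35 (adjusted p = 0.0141) and 0.16 (adjusted p = 0.164). SUM44PE, at 318.6 to 319.4 CPM, was above SUM44F and every LTED-B sample and between the LTED-A samples. These small rises were thus seen against SUM44F and not against SUM44PE.

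AKT2, its paralogue, stood out in MM134 LTED-B, where 106 to 108 CPM compared with 85.6 to 89.9 CPM in the parental cells (0.26, adjusted p = 5.85e-07, under the fold threshold). The other MM134 variants were between 80.8 and 93.8 CPM, with log2 fold changes of -0.12, 0.02 and -0.01. SUM44F had 76.3, 78.3 and 61.2 CPM and the SUM44 LTED samples 90.01 to 102 CPM, all above SUM44F. The changes of 0.39 and 0.35 had adjusted p values of 0.01004 and 0.00837, and without SUM44F replicate 3, the lowest library, they were 0.31 and 0.25.

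MTOR, the kinase at the core of both mTOR complexes, was highest in MM134 LTED-D. The MM134 parental libraries had 177, 172 and 170 CPM and LTED-D had 224, 222 and 228 CPM, above every other MM134 library (0.35, SE 0.025, adjusted p = 8.53e-10, under the fold threshold). LTED-A, LTED-B and LTED-E lay between, at 198 to 205, 182 to 189 and 188 to 191 CPM, and each was above the parental range. Their log2 fold changes were small, at 0.18 (adjusted p = 5.91e-06), 0.07 (adjusted p = 0.0199) and 0.10 (adjusted p = 0.00248). The last 2 did not pass the threshold on the adjusted p either. In the SUM44 line the LTED samples, at 199 to 224 CPM, were above all SUM44F (144 to 178 CPM) and SUM44PE (148 to 162 CPM) samples. The changes against SUM44F were 0.37 and 0.28 with adjusted p values of 0.0128 and 0.0234.

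The order of the group means and the gaps between neighbours in that order differed between members. For INPP4B, 7 of the 8 neighbouring pairs of groups were separated with no overlap of samples, from SUM44PE at the top (203 ± 7.27 CPM, SD, n = 3) to MM134 parental cells (34.6 ± 1.48 CPM, SD, n = 3). For PIK3R1 it was also 7 of 8, from SUM44F (221 ± 12.3 CPM, SD, n = 3) to MM134 LTED-E (29.6 ± 0.227 CPM, SD, n = 3). PIK3R3 had 5 separated pairs, AKT2 had 3, PIK3CA, PIK3CB, AKT1 and MTOR had 2 each. For the last 4, most neighbours in the order did not differ beyond their spread. The same count was not made over all genes, so these counts describe the members and are not read as particular to them.

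The change with LTED was then compared between the lines, by subtracting the mean SUM44 LTED change from the mean MM134 LTED change in 1 fit of both lines. PIK3R1 (1.57, SE 0.049, adjusted p = 4.13e-17), INPP4B (1.51, SE 0.062, adjusted p = 4.37e-15) and PIK3R3 (0.72, SE 0.049, adjusted p = 2.95e-11) passed both thresholds, 3 of 8 members, with 20.9% of all genes tested called. For PIK3R1 the direction was downward in both lines and steeper in SUM44. For INPP4B the 4 MM134 changes were above 0 and both SUM44 changes below it. Of these, MM134 LTED-D (0.10), MM134 LTED-E (0.42) and SUM44 LTED-A (-0.36) were not called. SUM44 LTED-B differed from SUM44 LTED-A by a called -1.26, so the tested difference is between means over unlike variants. For PIK3R3 the MM134 mean covers changes in both directions, 0.03, -0.42, -0.44 and 0.69 in the order A, B, D and E, of which that of LTED-E was called, and LTED-B and LTED-D lay below their parental cells as the SUM44 variants did. AKT2 differed by -0.35 (adjusted p = 1.51e-04), under the fold threshold, and the other members by -0.16 to 0.24. The 3 called values were 1.56, 1.51 and 0.71 without SUM44F replicate 1. SUM44F was the SUM44 parental culture throughout. The difference was not tested against SUM44PE, whose PIK3R3 level overlapped that of SUM44 LTED-A. INPP4B was higher in SUM44PE than in SUM44F by a called 0.90. The size of its SUM44 change thus also depended on the parental culture.

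Levels of different genes were compared only per length, as CPM per kilobase of all annotated exons of a gene, within the class IA regulatory and catalytic families. Among the class IA regulatory genes, PIK3R1 made up 34.3 ± 0.601% (SD, n = 3) of the summed level per length in SUM44F and 33.6 ± 0.149% in SUM44PE, and 15.7 ± 0.298% (n = 2) and 15.3 ± 0.801% in SUM44 LTED-A and LTED-B. In MM134 its share was 6.83 ± 0.237% in parental cells and 3.49 ± 0.0586% in LTED-E. The share of PIK3R3 was 55.2 ± 0.678% in MM134 parental cells and 74.3 ± 0.318% in LTED-E, against 47.2% and 48.4% in LTED-B and LTED-D. In SUM44 the share of PIK3R3 by this length was 48.0% in SUM44F and 49.9% and 49.3% in the variants, and PIK3R2, the remaining gene of the family, held 17.7% in SUM44F and 34.4% and 35.4% in the variants. The exact two-sided permutation test cannot go below 0.10 with 3 against 3 samples or 0.20 with 2 against 3. It gave these smallest values for the share of PIK3R1 in MM134 LTED-A and LTED-E and in both SUM44 variants, and for that of PIK3R3 in MM134 LTED-B, LTED-D and LTED-E.

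The regulatory genes together stood at 7.67 ± 0.438 times the summed level per length of the catalytic genes in SUM44F, and at 4.61 ± 1.13 and 5.46 ± 0.355 times in SUM44 LTED-A and LTED-B. In MM134 this ratio was 6.59 ± 0.276 in parental cells, 6.67 ± 0.431 in LTED-A, 5.68 ± 0.162 in LTED-B, 5.67 ± 0.264 in LTED-D and 8.28 ± 0.110 in LTED-E. The libraries of LTED-E lay above and those of LTED-B and LTED-D below the parental range. The ratio of SUM44PE was 5.87 ± 0.0613, and its libraries lay below those of SUM44F and above every SUM44 LTED sample.

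By the length of all exons, PIK3CA and PIK3CB held 48.9 ± 1.96% and 47.7 ± 2.203% of the catalytic genes in MM134 parental cells and 37.4 ± 2.01% and 49.4 ± 1.68% in SUM44F, with PIK3CD holding the rest. These shares depend on the length assigned to each gene. With the length of the longest transcript in place of all exons, PIK3CA (57.9%) was above PIK3CB (38.2%) in MM134 parental cells, and PIK3CA (44.9%) came above PIK3CB (40.01%) in SUM44F. By that length PIK3R1 held 48.1% of the regulatory genes in SUM44F, above the 38.1% of PIK3R3, which was the reverse of their order by all exons. The share of PIK3R3 was then 44.7% in SUM44 LTED-A and 44.4% in SUM44 LTED-B.

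**Figure D3:**
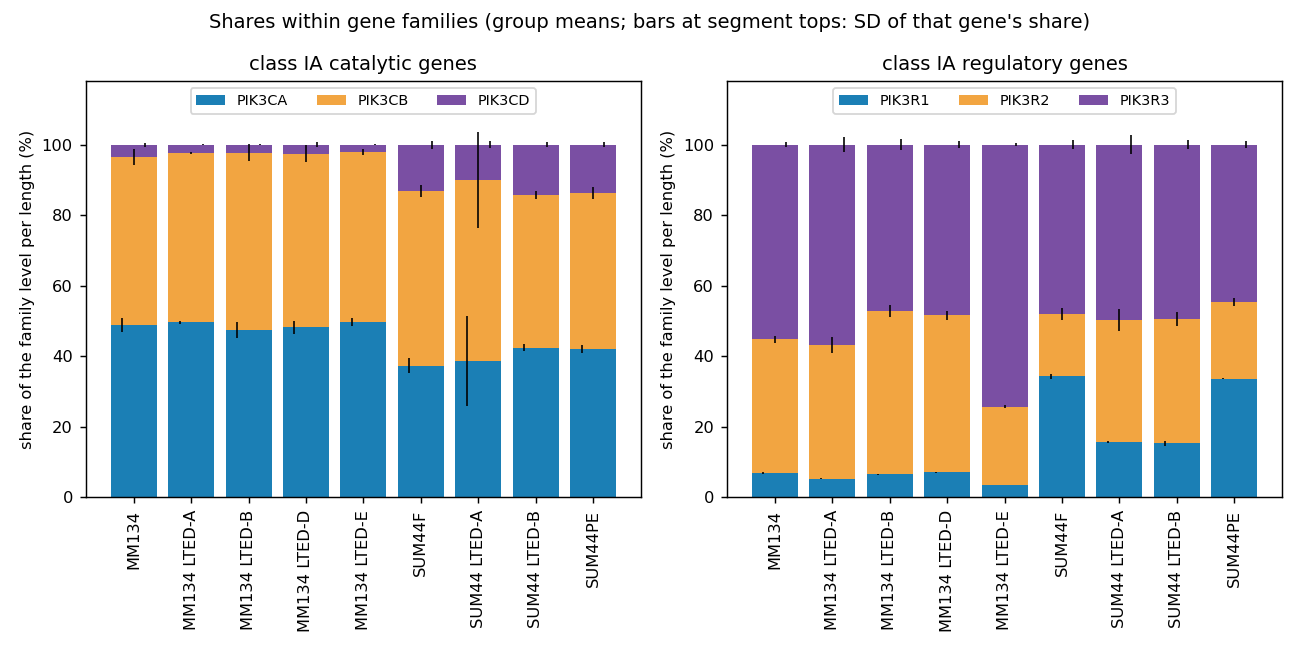
Share of each gene in the summed level per length of its family (vertical axis, percent of CPM per kilobase of annotated exons), as stacked group means with the SD of each gene's share at the top of its segment. The blue PIK3R1 segment shrinks from 34.3% in SUM44F to 15.7% and 15.3% in the SUM44 LTED variants, and the purple PIK3R3 segment reaches 74.3% in MM134 LTED-E.

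The 20 nearest expressed genes on each side of a member were used to see whether its change was shared with the chromosome region around it. For PIK3R1 the median log2 fold change of these 40 genes was between -0.09 and 0.01 in the MM134 variants, and 0.07 and 0.14 in SUM44 LTED-A and LTED-B, where PIK3R1 itself was at -1.87 and -2.05. For INPP4B the neighbours had medians of 0.16 and 0.23 in the SUM44 variants, above 0, and 0.04 to 0.13 in the MM134 variants. The neighbours of PIK3R3 stayed between -0.10 and 0.06 in all 6 variants. None of the called LTED changes of these 3 members was accompanied by a median of its neighbours of the same size. The medians depended on how the neighbours were chosen. Over all members and LTED variants, 25 medians moved and 23 stayed the same with 10 genes on each side. With neighbours of at least 5 CPM, 10 moved and 38 stayed the same. Around AKT1, the neighbours were lower in the MM134 LTED variants, with medians of -0.17 to -0.24, while AKT1 was higher. In SUM44PE against SUM44F the neighbours of AKT1 had a median of 0.48, close to the value of AKT1 itself (0.41, adjusted p = 0.00200), and those of AKT2 and MTOR in the SUM44 variants had medians of 0.27 to 0.38, close to the 0.28 to 0.39 of the members. Between the lines the neighbours of PIK3CA were lower in SUM44F than in MM134 as well, with a median of -0.40 beside -0.69 for PIK3CA. This was not particular to PIK3CA, as the neighbours of PIK3CB, PIK3R1, PIK3R3 and AKT2 had medians of -0.43, -0.34, -0.52 and -0.46. Those of AKT1, INPP4B and MTOR had medians of 0.10, -0.08 and -0.0021.

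**Figure D4:**
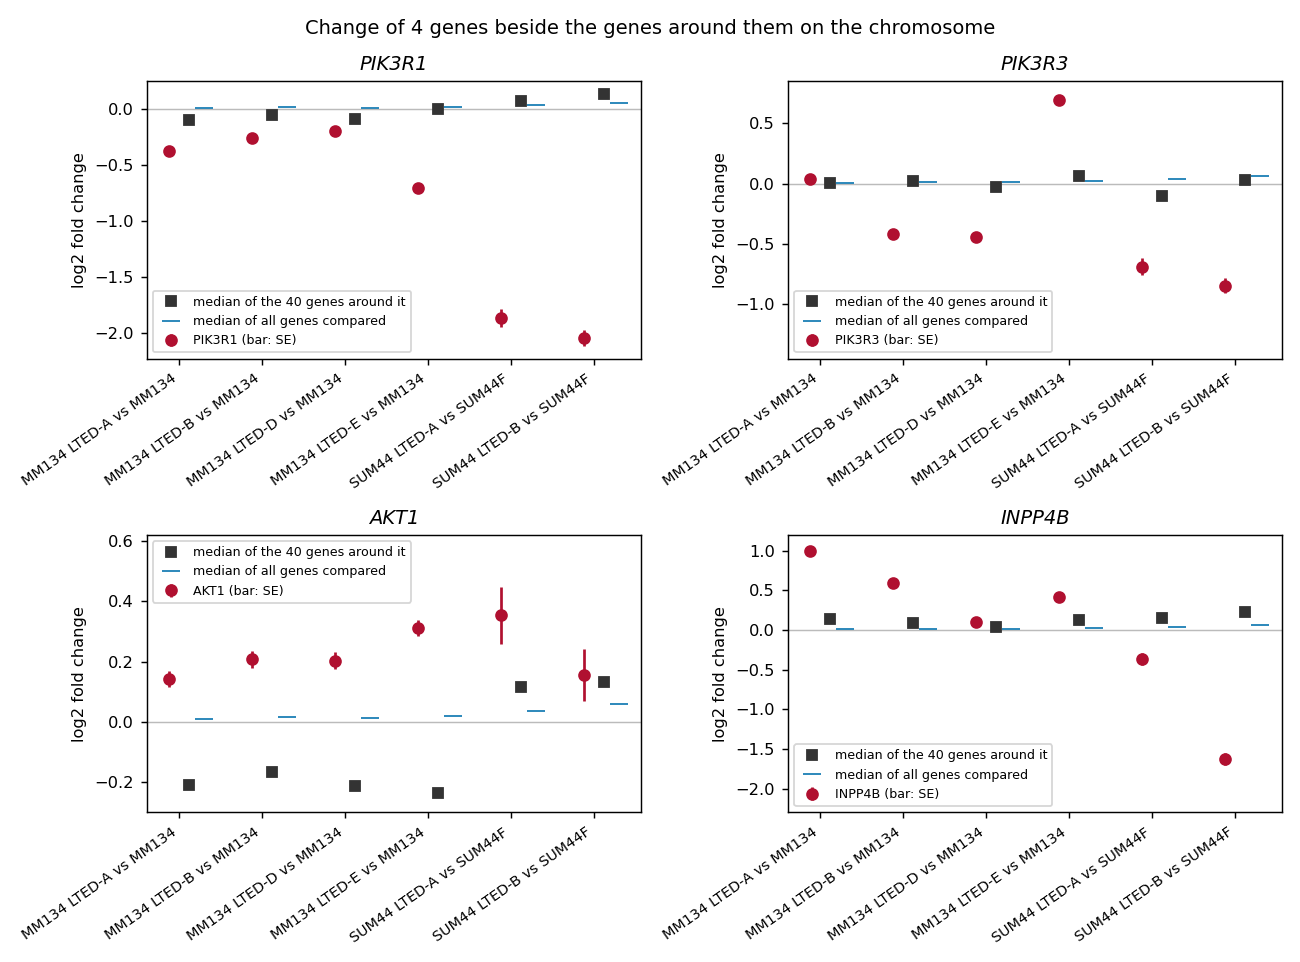
log2 fold change (vertical axes) of PIK3R1, PIK3R3, AKT1 and INPP4B in the 6 LTED variants, as red points with the SE, beside the median of the 40 expressed genes around each (black squares) and of all genes compared (blue dashes). The squares lie between -0.24 and 0.23, and the red points of PIK3R1, PIK3R3 and INPP4B reach -2.05, -0.84 and -1.63.

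Over the 9 group means, PIK3CA and PIK3CB had a Pearson's r of 0.86, PIK3R1 and INPP4B of 0.76, and PIK3R1 and PIK3CA of -0.71. These values describe 9 points that fall into 2 cell lines and share a normalisation. Among 16785 expressed genes, the 2 with a pattern most like PIK3R1 were COLQ (r = 0.987) and RILP (r = 0.987), those most like INPP4B were PIGL (r = 0.989) and TBC1D22A (r = 0.977), and those most like PIK3R3 were SLC5A3 (r = 0.941) and SLC38A10 (r = 0.938). CCDC28B was among the nearest to PIK3CA (r = 0.995). The nearest to PIK3CB were TMEM80 and CNTNAP2 (r = 0.956 and 0.944) and to MTOR GLO1 and ANKIB1 (r = 0.975 and 0.967). AKT2 was nearest to RN7SKP28 and RN7SKP170 (r = 0.979 and 0.971), both pseudogenes of the small nuclear RNA 7SK. The nearest to AKT1, with an r of 0.881 at most, were 2 genes that carry no symbol in the annotation.

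A list of 69 other genes of the pathway placed the members in context. In MM134, 7 of the 66 tested were called higher in at least 3 of the 4 variants (6.66% of all genes were) and 7 lower (6.83%). In SUM44, 4 of 67 were called higher in both variants (3.87%) and 10 lower (4.75%). PIK3CD, PIK3R2, PDPK1, TSC1, TSC2, RHEB, RPTOR and RICTOR passed both thresholds in no SUM44 variant, and in MM134 PIK3CD was called lower in 1 variant and PDPK1, the kinase that activates AKT, higher in 1.

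The genes named next were picked from the called ones as those with the largest changes per role and direction. Their sizes are therefore not compared with those of the members. In MM134, the kinase SGK2 rose by 2.43 to 2.93 on the log2 scale while its relative SGK1 fell by 2.02 to 2.54, and among the subunits of the mTOR complexes the inhibitor DEPTOR rose by 1.497 to 2.76 and PRR5L fell by 1.08 to 3.26. RRAGD, a GTPase that brings mTOR complexes to lysosomes, rose by 3.56 to 5.31 from 1.27 CPM, and the AKT inhibitor TRIB3 by 1.61 to 3.98. SESN3, a sestrin, changed by -1.36 to -4.01 and ULK1, a kinase of autophagy, by -1.04 to -1.89. The lipid phosphatase INPP5J changed by -0.63 to -1.52 and the class II PI3K PIK3C2G by -0.91 to -4.17. Levels in MM134 parental cells were low for PRR5L (1.80 CPM), PIK3C2G (4.30 CPM), SGK1 (4.65 CPM) and DEPTOR (7.94 CPM). In the SUM44 variants EIF4EBP1, the translation repressor that mTOR phosphorylates, rose by 1.89 to 2.07, SGK3 by 1.06 to 1.53, TRIB3 by 1.203 to 1.33 and MLST8, an mTOR complex subunit, by 0.67 to 0.74. The PI3K inhibitor PIK3IP1 changed by -1.58 to -2.05, PIK3C2G by -1.18 to -1.27 and SESN3 by -2.19 to -4.75. PIK3C2G and SESN3 were low in SUM44F already, at 2.96 and 6.04 CPM. PDCD4, a translation inhibitor, rose by 0.75 to 1.57 in MM134 and changed by -1.32 to -1.79 in SUM44, and its difference between the lines was 2.67 (adjusted p = 8.24e-19).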

How the data were processed

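RNA-Seq of 27 libraries in 9 groups of 3 was analysed. The authors quantified reads with Salmon 0.6.0 (default settings) against Ensembl release 82 on hg38, per the study's methods and the submitters' processing notes, and deposited estimated counts per gene. The strand setting was not given in the sources used here. Of 60619 gene IDs, 56434 matched GENCODE release 44, which gave symbols, positions and lengths. Counts were rounded to whole numbers, filtered with filterByExpr, TMM-normalised and tested with edgeR 4.0.16 (R 4.3.3, limma 3.58.1), glmQLFit and glmQLFTest, two-sided, with Benjamini-Hochberg adjustment over all genes tested: 26061 in the fit of the 5 MM134 groups, 26834 for SUM44F with the SUM44 LTED variants, 27457 with SUM44PE added and 29200 for both lines. A gene was called when its fold change was above 1.5 and its adjusted p under 0.001, the study's thresholds. CPM for levels came from 1 normalisation of all groups.

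Each pair of replicates was checked by a chi-square per gene compared. SUM44 LTED-A replicates 2 and 3 gave 0.312 per degree of freedom, against 2.35 to 58.1 in the other 26 pairs, so their mean counted as 1 sample. Tested on simulated data, the procedure recovered 96%, 94% and 84% of 2-fold changes in MM134 LTED-A, SUM44 LTED-A and the difference between lines (25319, 25776 and 27283 genes), with 0 unchanged genes called. The simulation gave every gene the same fixed spread and held no outlying library. Pairs of real libraries reached 42.8 per degree of freedom in SUM44F and 58.1 in SUM44 LTED-A, so these percentages do not measure recovery in the real SUM44 libraries.

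The 8 members and the list of 69 other pathway genes were chosen with earlier results of these data known. Of that list, the text names per role the called gene with the largest change in its least changed variant, in each direction, and the defining components, and for each member the 2 genes most alike by Pearson's r of log2(CPM + 1). Some genes under these rules are not reported here. Neighbours had a mean of at least 1 CPM. Promoter windows came from RefSeq on GRCh38.p14. Alternatives were no filter or at least 10 counts in every sample, RLE size factors, DESeq2 1.42.0, a replicate block, other thresholds, the 2 compared groups alone, the near-identical libraries kept separate, each library left out, other lengths, windows and measures of likeness.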

Additional observations from a re-analysis of the deposited data

Results flagged for a closer look

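The change with LTED differed between the lines for PIK3R1, PIK3R3 and INPP4B, by the test of the difference itself (mean log2 change with LTED in MM134 less the mean in SUM44, edgeR's quasi-likelihood test). The difference was 1.57 for PIK3R1 (adjusted p = 4.13e-17), 0.72 for PIK3R3 (adjusted p = 2.95e-11) and 1.51 for INPP4B (adjusted p = 4.37e-15). All 3 remained called without SUM44F replicate 1 or SUM44F replicate 3. SUM44F was the SUM44 parental culture in each of these fits. PIK3R3 averaged 92.1 CPM in SUM44PE, beside 90.5 CPM in SUM44 LTED-A (n = 2) and 80.3 CPM in SUM44 LTED-B. INPP4B averaged 203 CPM in SUM44PE and 111 CPM in SUM44F. Its changes against SUM44F were -0.36 in SUM44 LTED-A, which was not called, and -1.63 in SUM44 LTED-B. The difference was not tested against SUM44PE. For PIK3R3 the MM134 changes went both ways, from -0.44 in LTED-D to 0.69 in LTED-E, so that the tested difference is one between means over variants.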

How the results depend on the processing

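None of the 21 called changes of members reversed under any alternative, and DESeq2 and the replicate block changed no call among the 77 changes. The replicate numbers did not pair the samples (r of deviations from -0.389 to 0.283 for samples with the same number). INPP4B in MM134 LTED-B was 0.58 without the filter on low counts, which left 0 members called there, and ranged from 0.57 to 0.63 with a library left out (0 to 1 members called, 0 without MM134 parental replicate 1 or 2). With no minimum fold change, 4 members were called in MM134 LTED-A, LTED-D and LTED-E each and 5 in LTED-B, 3 in SUM44PE against SUM44F, 5 between the parental lines and 22 over the 6 pairs of MM134 variants, and 34 other pathway genes were called alike in MM134. With the 2 groups compared alone, 9 other pathway genes were called alike in SUM44. The share of all genes called alike was not computed under either setting, so neither count is read as a result about the list. In single MM134 variants, 32.5% to 37.8% of all genes passed with no minimum fold change. Leaving out a library gave 1 to 2 called members in SUM44 LTED-B against LTED-A, the added one being PIK3CB, and 1 to 2 in SUM44PE against SUM44F, where PIK3R3 was -0.61 without SUM44PE replicate 2.

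Changes that were not called and changed sign were small, except those of PIK3CB in SUM44 LTED-A and for the difference between lines. PIK3CA in MM134 LTED-A was -0.017 with at least 10 counts, -0.0011 with RLE and -0.0017 with its groups alone, PIK3CB in MM134 LTED-D was -0.0039 without the filter and -0.0093 with at least 10 counts, AKT2 there was -0.0024 with at least 10 counts, and PIK3CB in SUM44 LTED-A was -0.035 with the near-identical libraries separate. With a library left out, PIK3CA ranged from -0.031 to 0.036 in MM134 LTED-A, from -0.045 to 0.12 in SUM44 LTED-A and from -0.0046 to 0.092 for the difference between lines. PIK3CB ranged from -0.076 to 0.056 in MM134 LTED-A, from -0.052 to 0.081 in LTED-D, from -0.12 to 0.015 in LTED-E, from -0.47 to 0.60 in SUM44 LTED-A and from -0.0049 to 0.52 for the difference between lines. AKT2 ranged from -0.0027 to 0.036 in MM134 LTED-D and from -0.023 to 0.013 in LTED-E, MTOR from -0.075 to 0.031 in SUM44PE against SUM44F and from -0.12 to 0.0083 between parental lines, and AKT1 from -0.10 to 0.034 for the difference between lines. The cause was not tested. With Spearman's rho, 7 of the 16 genes most alike were shared.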
